A study of Mus musculus and Acomys cahirinus with 2 samples.

Results

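The tumour suppressor p53, several of its textbook targets and the Cip/Kip inhibitors of cyclin-dependent kinases were followed through the ear skin of Mus musculus (Mus) and of the spiny mouse Acomys cahirinus (Acomys). The set held 10 genes, chosen by symbol and not by level: Trp53, Mdm2, Cdkn1a, Cdkn1b, Cdkn1c, Rb1, Ccng1, Gadd45a, Gadd45b and Bax. All 10 had a symbol in both gene lists, among 15688 symbols that the lists shared. The Mus list held 28692 genes and the Acomys list 24509. Each species was measured in 1 droplet single-cell library of adult ear skin labelled day 0, with no genotype or treatment named. The series title speaks of injured ears, whereas both samples carry the label of day 0, and neither the number nor the sex of the animals is stated.

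p53 is a transcription factor that damaged DNA and other stress stabilise, and it switches on genes that halt the cell cycle, repair DNA or start cell death. One of its targets, the ubiquitin ligase Mdm2, marks p53 for breakdown and so closes a feedback loop. The Cip/Kip inhibitors Cdkn1a, Cdkn1b and Cdkn1c hold back cyclin-dependent kinases, which otherwise phosphorylate the retinoblastoma protein Rb1 and release E2F factors for the next S phase. In epidermis, basal keratinocytes divide, leave the cycle and move up as suprabasal cells, and Cdkn1a is known to be expressed in keratinocytes that withdraw from the cycle.

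After filters on UMIs, mitochondrial share and doublets, 6556 Mus cells with a median of 11784 UMIs and 4603 Acomys cells with a median of 7557 UMIs remained. A UMI is a molecular tag that counts 1 captured RNA molecule. The 5 classes were rebuilt by clustering each library by itself without the 10 genes, and were named from marker genes. There were 2875 resting basal-like cells of Mus and 1026 of Acomys, dividing basal-like cells 849 and 343, suprabasal-like cells 1529 and 1008, follicle-like cells 410 and 1115, and sebaceous-like cells 270 and 298. Median depth ranged from 7420 UMIs in follicle to 19209 in suprabasal cells of Mus, and from 4230 to 12414 in the same classes of Acomys. Of the markers with a shared symbol, all 8 suprabasal and all 35 cell cycle markers (14 of S phase and 21 of G2 and mitosis) were highest in their own class in both libraries, as were 7 of 11 basal markers in resting basal cells of each, and 15 and 12 of 16 sebocyte and 11 and 14 of 16 follicle markers in Mus and Acomys. The same markers were used to name the classes, so these counts describe the classes and do not test them. The summed level of the basal markers was 18500 CPM in resting basal and 20568 in follicle cells of Mus, and 22548 and 14602 in Acomys. Krt14, a defining basal keratin, had no symbol in the Acomys list. Cells left unnamed numbered 505 in Mus and 621 in Acomys, and 31 cell barcodes occurred in both libraries.

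Levels are given as CPM, the UMIs of a gene in all cells of a class scaled to 1e6 UMIs on the 15688 shared symbols, with an exact Poisson 95% interval. Ratios carry an exact conditional binomial 95% interval. With 1 library per species no test across samples was possible. The intervals cover counting error only, not differences between animals or preparations. Species, library and gene annotation cannot be told apart in a comparison of Acomys with Mus, since reads near the 3′ end of a transcript are counted only where the annotation reaches. Ratios between classes of the same library use 1 annotation, and whether incomplete transcript models change them was not tested.

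Of the 10 genes, 2 had, in mouse, a stretch close to the p53 response element consensus (a pair of 10-base half-sites) within the 250 bases before to 50 after a RefSeq start site (GRCm38.p6), and these are shown because both genes are classical p53 targets. RefSeq windows were matched for 8 of the 10 genes (9 windows). The consensus, which reads the same on both strands, was searched as 20 adjacent bases with at most 1 mismatch, a setting chosen after a stricter search, and 29 of 32851 windows (0.0883%) held it. No other motif was searched. The stricter search asked for both half-sites without mismatch and up to 13 bases apart, and 24 windows held that pattern, of which 1 belonged to the 10 genes, Cdkn1a. Capitals mark the 20 adjacent bases in the printed stretches, with 1 mismatch in each gene. The stretches overlap no annotated exon. In Cdkn1a, the half-sites found by the stricter search are not adjacent, so that pair is not the marked 20 bases. The Cdkn1a stretch lies at chr17:29090868-29090967 on the plus strand, with 31 bases between the element and the start site of that window. A further Cdkn1a window, at chr17:29093519-29093818, held 0 half-sites, and its best 20 bases had 5 mismatches. The Ccng1 stretch lies at chr11:40755442-40755536 on the minus strand, with 175 bases in between.
Cdkn1a: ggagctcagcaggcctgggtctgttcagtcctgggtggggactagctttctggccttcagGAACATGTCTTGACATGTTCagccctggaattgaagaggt
Ccng1: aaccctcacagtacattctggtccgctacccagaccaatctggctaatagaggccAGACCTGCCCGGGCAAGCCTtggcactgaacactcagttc
A match of letters describes the mouse sequence and does not show binding, and Acomys sequence was not analysed here.

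Cdkn1a, which encodes the kinase inhibitor p21 (mm10 chr17:29090976-29100727, plus strand), was higher in suprabasal than in basal cells of Mus as class averages. Its level was 148 CPM (143 to 154) in resting basal, 248 (237 to 258) in dividing basal, 719 (708 to 731) in suprabasal, 354 (330 to 380) in follicle and 362 (338 to 387) in sebaceous cells. Suprabasal cells stood apart at the top and resting basal cells at the bottom, and the intervals of follicle and sebaceous cells overlapped. Over resting basal cells the ratio was 4.86 (4.66 to 5.05) in suprabasal, 2.44 (2.26 to 2.64) in sebaceous, 2.39 (2.21 to 2.59) in follicle and 1.67 (1.58 to 1.77) in dividing basal cells. Of 7129 genes measured in the suprabasal comparison, 3.28% had a higher ratio than Cdkn1a. After every cell was thinned to 2800 UMIs, 67.8% (65.4 to 70.1, exact binomial) of suprabasal, 20.03% (18.59 to 21.55) of resting basal and 30.5% (27.4 to 33.7) of dividing basal cells of Mus held a Cdkn1a UMI. Unthinned, these shares were 97.71%, 50.02% and 73.03%, at median depths of 19209, 10721 and 15481 UMIs. No class that should lack Cdkn1a was at hand to measure background, so these shares are not read as shares of expressing cells. Free RNA, taken from barcodes of 10 to 100 UMIs, held Cdkn1a at 443 CPM in Mus, between the resting basal and the suprabasal level. With 10% of the UMIs of each class subtracted as free RNA, the suprabasal ratio was larger, with a log2 of 2.70 in place of 2.28.

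In Acomys, Cdkn1a was scarce in all 5 classes. The UMIs were 14 in resting basal, 6 in dividing basal, 63 in suprabasal, 27 in follicle and 3 in sebaceous cells, or 2.69 CPM (1.47 to 4.52), 2.36 (0.865 to 5.13), 6.60 (5.07 to 8.45), 6.63 (4.37 to 9.65) and 1.77 (0.365 to 5.17). Follicle and suprabasal cells had the highest levels, with overlapping intervals. The suprabasal interval lay above that of resting basal cells, and those of the 3 lower classes overlapped. Within the library, the ratio to resting basal cells was 2.45 (1.36 to 4.74) in suprabasal and 2.46 (1.25 to 5.08) in follicle cells, higher as in Mus, at levels under the minimum of 10 CPM set for a call. In dividing basal and sebaceous cells it was 0.875 (0.276 to 2.42) and 0.657 (0.121 to 2.35), where Mus was higher, on 6 and 3 UMIs with intervals that included no difference. Free RNA of the Acomys library held Cdkn1a at 6.89 CPM (1.88 to 17.6) from 4 UMIs, above the level of each class, with an interval that overlapped those of all 5. The part of free RNA in these few UMIs was not tested. At 2800 UMIs per cell, 0.893% (0.409 to 1.69) of suprabasal cells held a UMI, against 6.05% unthinned.

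**Figure D1:**
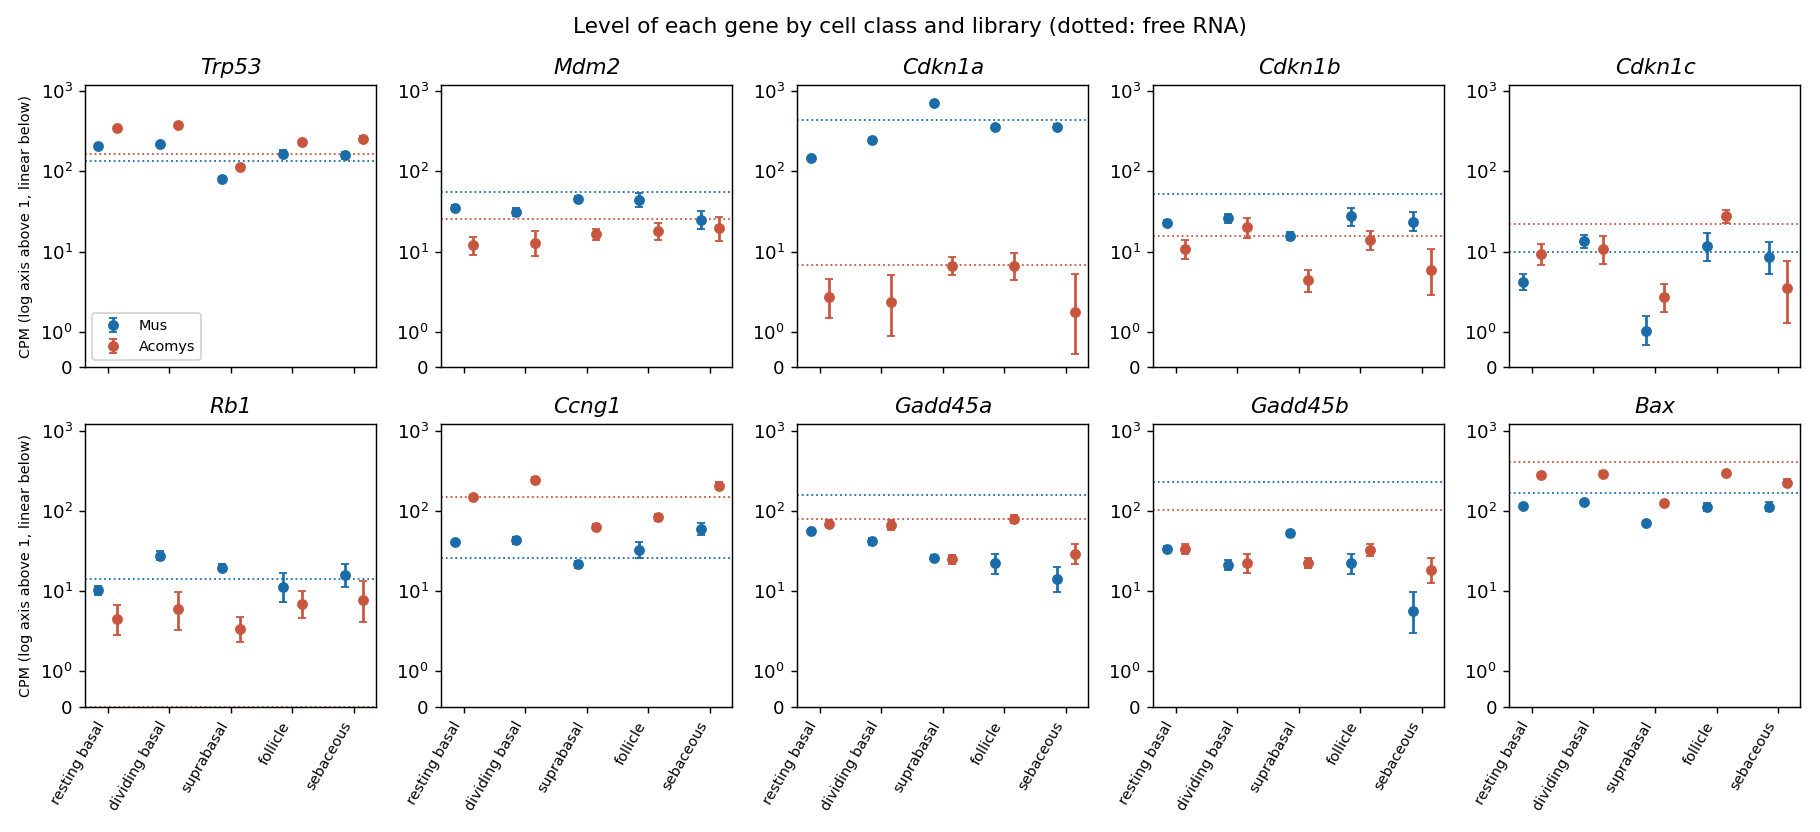
Level of each of the 10 genes (CPM; log axis above 1 and linear below) in the 5 cell classes of Mus (blue) and Acomys (red), with exact Poisson 95% intervals as bars and the level in free RNA as dotted lines. Cdkn1a peaks in Mus suprabasal cells at 719 CPM and stays under 7 CPM in every Acomys class, while Trp53 is lowest in suprabasal cells of both libraries, at 80.1 and 112 CPM.

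Trp53, the gene of p53 itself (chr11:69580359-69591873, plus strand), was lowest in suprabasal cells, the class where Cdkn1a of Mus was highest. In Mus its level was 208 CPM (202 to 215) in resting basal, 217 (207 to 227) in dividing basal, 166 (150 to 184) in follicle, 158 (142 to 175) in sebaceous and 80.1 (76.2 to 84.2) in suprabasal cells. In Acomys it was 346 (330 to 363), 379 (355 to 404), 233 (218 to 248), 254 (231 to 280) and 112 (106 to 119) in the same order of classes. Both libraries had their highest level in dividing basal and their lowest in suprabasal cells. In both libraries the intervals of the basal classes overlapped, and so did those of follicle and sebaceous cells. Trp53 was 2.60-fold lower (2.45 to 2.76) in suprabasal than in resting basal cells of Mus and 3.08-fold lower (2.86 to 3.33) in Acomys. Of all genes measured, 9.26% and 9.70% had a lower suprabasal ratio than Trp53. The ratio of dividing to resting basal cells was 1.04 (0.986 to 1.10) in Mus and 1.09 (1.01 to 1.18) in Acomys. Between resting basal and suprabasal cells of Mus, as class averages, Trp53 was thus lower and Cdkn1a higher, in RNA and not in protein.

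Mdm2, the ligase that degrades p53 (chr10:117688875-117710758, minus strand), differed less than 2-fold between the classes of each library. Its Mus levels were 35.3 CPM (32.7 to 38.0) in resting basal, 31.1 (27.5 to 34.9) in dividing basal, 45.6 (42.7 to 48.7) in suprabasal, 43.8 (35.5 to 53.4) in follicle and 24.97 (18.96 to 32.27) in sebaceous cells. The Acomys levels were 11.9 (9.15 to 15.3), 12.97 (8.93 to 18.2), 16.5 (13.98 to 19.2), 17.9 (14.1 to 22.5) and 19.5 (13.4 to 27.4). Suprabasal cells were 1.30 times (1.17 to 1.43) resting basal cells in Mus and 1.38 times (1.02 to 1.88) in Acomys, short of the 1.5-fold limit. In sebaceous cells Mdm2 was 1.41-fold lower (1.08 to 1.88) in Mus, and in Acomys it was past the limit at 1.63 (1.04 to 2.53). The difference between these ratios was not tested.

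The other inhibitors of the Cip/Kip family had their own patterns. Cdkn1b encodes p27, which holds cells in quiescence (chr6:134920401-134925513, plus strand). Its level in resting basal, dividing basal, suprabasal, follicle and sebaceous cells was 22.9, 26.1, 15.8, 27.6 and 23.7 CPM in Mus and 10.8, 20.04, 4.40, 13.8 and 5.90 CPM in Acomys. Suprabasal cells were lowest in both libraries. They were 1.45-fold lower (1.25 to 1.68) than resting basal cells in Mus, under the limit, and 2.45-fold lower (1.61 to 3.75) in Acomys. Dividing basal cells of Acomys were 1.86 times (1.25 to 2.77) resting basal cells, and those of Mus 1.14 times (0.971 to 1.34). Acomys sebaceous cells were 1.83-fold lower (0.923 to 4.02) from 10 UMIs, with an interval that includes no difference.

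Cdkn1c, which encodes p57, an imprinted inhibitor known for its part in development (chr7:143458339-143461050, minus strand), was higher in follicle than in resting basal cells of both libraries, and in dividing basal cells of Mus. Its Mus level was 4.18 CPM (3.32 to 5.19) in resting basal, 13.4 (11.2 to 16.0) in dividing basal, 1.03 (0.627 to 1.58) in suprabasal, 11.7 (7.67 to 17.2) in follicle and 8.61 (5.26 to 13.3) in sebaceous cells. In Acomys it was 9.24 (6.81 to 12.3), 10.6 (6.99 to 15.4), 2.72 (1.78 to 3.99), 27.8 (22.9 to 33.4) and 3.54 (1.30 to 7.71). Suprabasal cells were lowest in both libraries, and in Acomys the interval of follicle cells lay above those of the other 4 classes. Over resting basal cells, follicle cells were 2.81 times (1.74 to 4.42) in Mus and 3.004 times (2.13 to 4.30) in Acomys. These were class averages. The follicle clusters with Krt79 were at 1.84 CPM (0.223 to 6.65) in Mus, from 2 UMIs, and 2.53 (0.689 to 6.47) in Acomys, from 4 UMIs. Neither level was above that of resting basal cells. Dividing basal cells were 3.22 times (2.41 to 4.31) resting basal cells in Mus but 1.15 times (0.689 to 1.88) in Acomys.

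Rb1, the pocket protein that the inhibitors keep active (chr14:73183673-73325822, minus strand), was highest in dividing basal cells of Mus. Its Mus level was 10.1 CPM (8.78 to 11.7) in resting basal, 27.4 (24.1 to 31.1) in dividing basal, 19.4 (17.5 to 21.4) in suprabasal, 11.3 (7.31 to 16.7) in follicle and 15.9 (11.2 to 22.0) in sebaceous cells. Dividing basal cells had 2.71 times (2.24 to 3.28) and suprabasal cells 1.91 times (1.61 to 2.28) the resting basal level. Sebaceous cells had 1.57 times (1.08 to 2.24) that level. In Acomys all 5 levels lay between 3.35 and 7.67 CPM from 13 to 32 UMIs a class, and the intervals of neighbouring levels overlapped. Relative to resting basal cells, the suprabasal ratio was 0.758 (0.430 to 1.36), and those of the other 3 classes also had intervals that included no difference.

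The remaining targets, Ccng1, Bax and Gadd45a, were lower in suprabasal than in resting basal cells of both libraries. Ccng1 encodes cyclin G1, a p53 target that feeds back on Mdm2 (chr11:40748552-40755311, minus strand). Its level in resting basal, dividing basal, suprabasal, follicle and sebaceous cells was 40.5, 43.0, 21.5, 32.5 and 59.4 CPM in Mus and 147, 242, 63.0, 82.5 and 207 CPM in Acomys. Suprabasal cells were lowest in each, 1.88-fold lower (1.67 to 2.12) than resting basal cells in Mus and 2.33-fold lower (2.09 to 2.59) in Acomys. Dividing basal cells of Acomys had 1.66 times (1.49 to 1.84) the resting level, against 1.06 times (0.938 to 1.20) in Mus. Sebaceous cells were higher by 1.47 times (1.22 to 1.76) and 1.41 times (1.24 to 1.60), both under the limit. Follicle cells of Acomys were 1.78-fold lower (1.56 to 2.02).

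Bax, the pore-forming protein of mitochondrial cell death (chr7:45461697-45466898, minus strand), was at 116 CPM (111 to 120) in resting basal, 128 (121 to 136) in dividing basal, 70.2 (66.5 to 74.0) in suprabasal, 112 (98.1 to 126) in follicle and 113 (99.5 to 127) in sebaceous cells of Mus. In Acomys it was at 283 (268 to 298), 289 (268 to 311), 124 (117 to 132), 296 (280 to 314) and 224 (202 to 247). Apart from the low suprabasal level, 1.65-fold lower (1.54 to 1.76) in Mus and 2.28-fold lower (2.11 to 2.46) in Acomys, the classes lay close together. No other class was past 1.5-fold in either library. Free RNA held Bax at 169 CPM in Mus and 408 in Acomys, above all 5 classes of its library.

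Gadd45a and Gadd45b encode stress sensors that bind cell cycle and repair proteins, and Gadd45a is the p53 target of the pair. Gadd45a (chr6:67035096-67037457, minus strand) was at 56.2 CPM (52.9 to 59.6) in resting basal, 42.0 (37.9 to 46.4) in dividing basal, 26.1 (23.8 to 28.4) in suprabasal, 22.1 (16.4 to 29.3) in follicle and 14.2 (9.78 to 19.95) in sebaceous cells of Mus. In Acomys it was at 68.9 (61.95 to 76.4), 66.4 (56.8 to 77.2), 25.04 (21.97 to 28.4), 79.6 (71.1 to 88.7) and 28.9 (21.4 to 38.2). Suprabasal and sebaceous cells were low in both libraries, while follicle cells were low in Mus and near the resting basal level in Acomys. Relative to resting basal cells, suprabasal cells were 2.16-fold lower (1.94 to 2.40) in Mus and 2.75-fold lower (2.33 to 3.25) in Acomys, and sebaceous cells 3.96-fold lower (2.80 to 5.78) and 2.38-fold lower (1.76 to 3.28). Follicle cells were 2.54-fold lower (1.91 to 3.45) in Mus and 1.16 times (0.991 to 1.35) in Acomys. The free RNA of Mus held Gadd45a at 159 CPM, above every class, and with free RNA subtracted the Mus follicle ratio had a log2 of -2.68 in place of -1.34. The Mus sebaceous ratio could not be evaluated there, since the subtracted UMIs exceeded those counted. The fixed share of 10% was thus too large for that class, and whether it suits follicle cells was not tested.

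Gadd45b (chr10:80930073-80932204, plus strand) had suprabasal ratios in opposite directions in the 2 libraries, each with an interval that did not include a ratio of 1. In Mus its level was 33.3 CPM (30.8 to 35.97) in resting basal, 21.04 (18.2 to 24.2) in dividing basal, 52.9 (49.7 to 56.2) in suprabasal, 22.1 (16.4 to 29.3) in follicle and 5.60 (2.98 to 9.57) in sebaceous cells. In Acomys it was 33.3 (28.5 to 38.6), 22.4 (17.0 to 29.0), 22.2 (19.3 to 25.4), 32.2 (26.9 to 38.2) and 18.3 (12.4 to 26.0). Suprabasal cells were 1.59 times (1.44 to 1.75) resting basal cells in Mus and 1.499-fold lower (1.22 to 1.84) in Acomys, just short of the limit. Sebaceous cells were lower in both, 5.95-fold (3.46 to 11.2) and 1.82-fold (1.24 to 2.76). Free RNA held Gadd45b at 228 CPM in Mus, 6.86 times the resting basal level, and at 103 CPM in Acomys, 3.10 times that level. With free RNA subtracted, the suprabasal log2 ratio was 1.52 in Mus in place of 0.67 and -0.95 in Acomys in place of -0.58. The Mus ratios of dividing basal, follicle and sebaceous cells could not be evaluated there, since the subtracted UMIs exceeded those counted. The fixed share of 10% was thus too large for those classes. Whether it suits the other classes was not tested, so the values with free RNA subtracted are no corrected levels. A list of 17 genes known to respond to tissue dissociation, such as Fos and Jun, summed to 7112 CPM in suprabasal and 5219 in resting basal cells of Mus, and to 6652 and 4873 in Acomys. Hspb1 was higher by a log2 of 2.75 and 2.79, while over the list 3 genes were higher and 5 lower of 15 that passed in Mus and 4 higher and 7 lower of 14 in Acomys, with medians of -0.27 and -0.61. The shares over all genes were 11.8% higher and 33.3% lower in Mus, and 11.0% and 42.5% in Acomys. The part of the dissociation response in the Gadd45b levels was not tested.

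**Figure D2:**
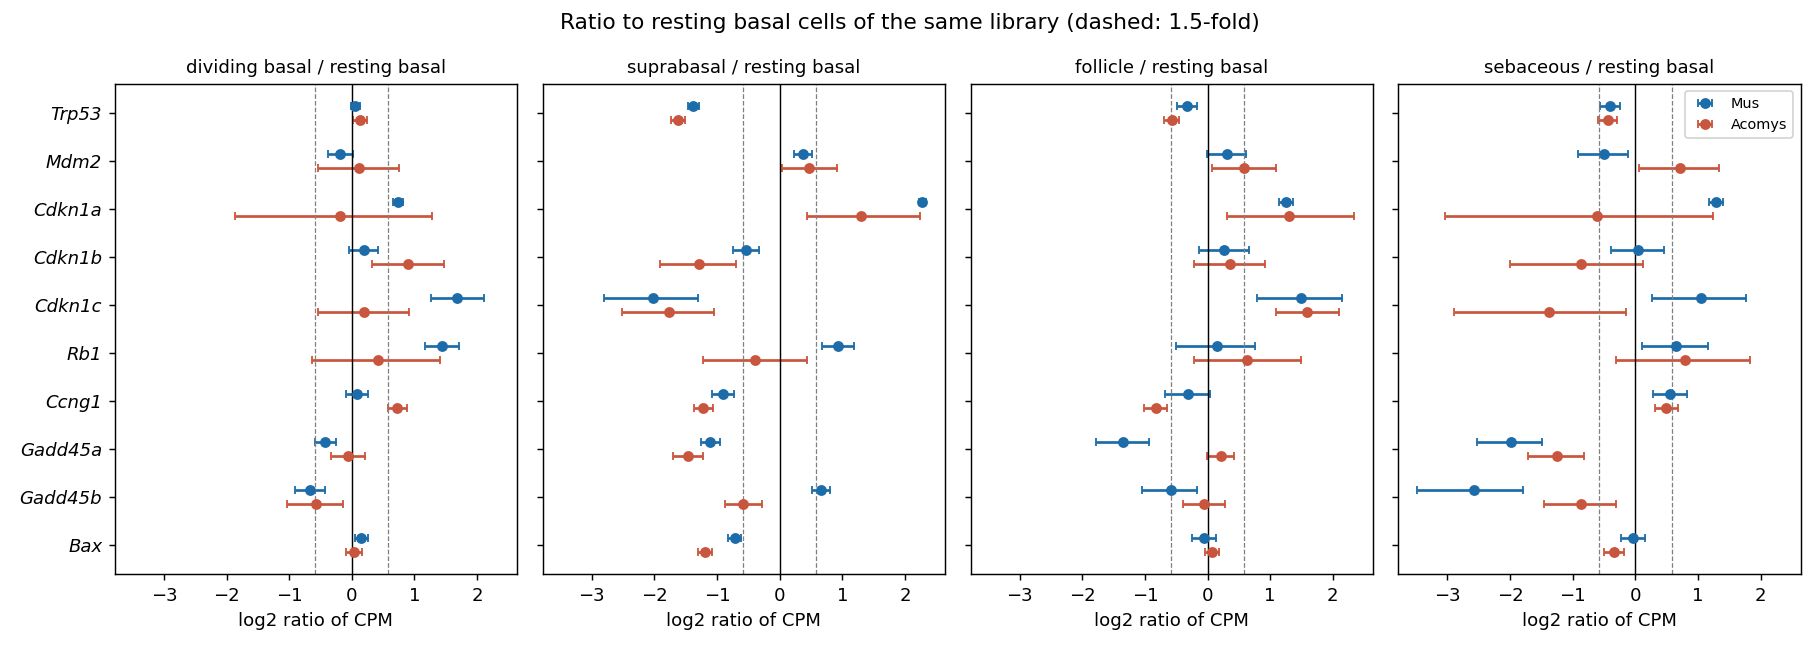
Log2 ratio of each class to resting basal cells of the same library for the 10 genes, with exact 95% intervals as bars (Mus blue, Acomys red) and dashed lines at 1.5-fold. In the suprabasal panel Trp53, Ccng1, Gadd45a and Bax lie left of the dashed line in both libraries, and Cdkn1a lies at 2.28 in Mus.

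Counted together, the 7 to 10 genes that passed in a comparison were too few to set their counts apart from the share of all genes. A gene was counted past the limit if it differed by at least 1.5-fold, with at least 20 UMIs over both classes and at least 10 CPM in the higher one. In Mus dividing basal cells, 3 of the 10 genes were higher (Cdkn1a, Cdkn1c and Rb1) and 1 lower (Gadd45b), and of all genes 13.2% were higher and 5.52% lower. The Gadd45b ratio, with a log2 of -0.66, was under 1.5-fold in 5 alternatives, at -0.26 with Leiden resolution 2. In Acomys dividing basal cells, 2 of the 8 that passed the filter were higher (Cdkn1b and Ccng1) and none lower, against 13.3% and 9.11% of all genes. In Mus suprabasal cells, 3 of 9 were higher (Cdkn1a, Rb1 and Gadd45b) and 4 lower (Trp53, Ccng1, Gadd45a and Bax), against 11.8% and 33.3%. In Acomys suprabasal cells, 5 of 7 were lower (the same 4 and Cdkn1b) and none higher, against 42.5% lower and 11.0% higher. In follicle cells, 2 of 10 were higher and 2 lower in Mus (background 15.3% and 10.8%), and 1 of 8 higher and 1 lower in Acomys (14.2% and 7.50%). In sebaceous cells, 2 of 9 were higher and 2 lower in Mus (22.3% and 17.5%), and 1 of 7 higher and 3 lower in Acomys (13.4% and 23.0%). The median log2 ratio over all 10 genes in suprabasal cells was -0.63 in Mus and -1.20 in Acomys, beside -0.34 and -0.46 over all genes measured. With so few genes, and with 33.3% to 42.5% of all genes lower in suprabasal cells, the counts of lower genes are no result about this set.

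The calls in dividing cells depended on how dividing cells were taken. Where dividing cells were basal cells with at least 5 UMIs on cell cycle markers and resting cells those with at most 1, 1 gene in each library was past the limit, Rb1 in Mus and Cdkn1b in Acomys. Under that choice the log2 ratio of Mus dividing over resting cells was 0.19 for Cdkn1a, 0.68 for Cdkn1c and 0.78 for Rb1, in place of 0.74, 1.68 and 1.43, and Cdkn1c was under the minimum of 10 CPM. For Ccng1 in Acomys it was 0.47 in place of 0.73.

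Clusters within a class, compared after they had been seen, showed that averages over classes hid large differences in Cdkn1a. Among dividing basal cells of Mus, the cluster led by the G2 and mitosis gene Top2a (361 cells) was at 344 CPM (326 to 362), the S-phase cluster led by Ung (234 cells) at 130 (115 to 147) and the mitotic cluster led by Cenpa (191 cells) at 148 (129 to 169). The Top2a-led cluster thus had 2.64 times (2.32 to 3.03) the Cdkn1a level of the S-phase cluster, and 3.38 times (2.25 to 5.27) its Rb1 level, 44.9 against 13.3 CPM. The same pair gave 2.77 times (1.59 to 5.17) for Cdkn1c and 1.94 times (1.35 to 2.87) for Cdkn1b, but 0.953 times (0.855 to 1.06) for Trp53. A further dividing cluster of 63 cells, led by Krt6a, was at 251 CPM (226 to 278) and had a median of 38331 UMIs, the highest of the dividing clusters. Median depth was 17556 UMIs in the Top2a-led and 13886 in the Ung-led cluster. Its part in these ratios was not tested.

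Resting basal and suprabasal clusters of Mus formed a series of Cdkn1a levels. Of the 4 resting basal clusters, 3 were at 104 to 142 CPM, and the one led by the early suprabasal keratin Krt1 (430 cells) was at 288 (270 to 307), 2.78 times (2.52 to 3.07) the largest basal cluster. The suprabasal cluster led by Krt1 was at 539 (518 to 561), those led by Alox12e and by F3, a gene of coagulation, at 933 (906 to 960) and 904 (868 to 941), and the late cluster led by the cornified envelope gene Lor (65 cells) at 130 (108 to 155). Cdkn1a was thus 7.196 times (6.02 to 8.68) as high in the Alox12e-led as in the Lor-led cluster. Trp53 was lower along the same clusters, at 137 CPM (127 to 149) in the Krt1-led, 43.4 (37.9 to 49.6) in the Alox12e-led and 30.6 (20.5 to 43.9) in the Lor-led cluster. In Acomys, Trp53 was at 192 CPM (177 to 208) in the suprabasal cluster led by Krt1 and at 93.8 (83.7 to 105) in that led by Mt4, and Cdkn1a stayed between 4.83 and 9.32 CPM in all 4 suprabasal clusters.

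Follicle and sebaceous clusters differed in the same pair of genes. The Mus follicle cluster led by Defb6 and Krt79 (180 cells) had Cdkn1a at 593 CPM (548 to 641), 6.31 times (4.94 to 8.15) the 94.1 CPM of the cluster that held the follicle stem cell markers Lgr5 and Lhx2 (159 cells). Trp53 went the other way, 92.0 CPM (74.8 to 112) against 253 (219 to 291). Cdkn1c was at 27.1 CPM (16.8 to 41.4) in the Lgr5 and Lhx2 cluster from 21 UMIs and at 1.84 (0.223 to 6.65) in the Krt79 cluster from 2 UMIs. In Acomys, Cdkn1c was lowest in the Krt79-led follicle cluster, at 2.53 CPM (0.689 to 6.47), and highest in the Krt35-led one, at 71.8 (50.5 to 98.9). The ratio of these extremes, 28.4 (10.2 to 110), rests on 4 UMIs in the lower cluster. The follicle clusters led by Smim1, Prss22 and Slc39a8 were at 50.9, 34.2 and 6.87 CPM.

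Sebaceous cells consisted of a cluster counted as cycling, by at least 5 cell cycle markers, and a mature cluster with lipid genes. In Mus these were 181 cells led by Gsta3, with 35 cycle markers, and 89 cells led by Cidea. In Acomys they were 260 cells led by Igfbp2, with 5 cycle markers, the minimum, and 38 cells led by Elovl3. The summed G2 and mitosis markers of sebaceous cells were at 2407 CPM in Mus and 369 in Acomys. In resting basal cells they were at 210 and 275, and in dividing basal cells at 6055 and 8250. The Acomys cluster is thus called cycling by the marker rule only. In the mature Mus cluster Cdkn1a was at 736 CPM (681 to 793), 6.49 times (5.45 to 7.77) the 113 CPM of the cycling one, and Trp53 was 3.21-fold lower (2.44 to 4.29), 67.9 against 218 CPM. The mature Acomys cluster had Trp53 4.48-fold lower (2.77 to 7.77), 64.5 against 289 CPM, and Ccng1 1.91 times (1.49 to 2.43) as high, 346 against 181 CPM. No Cdkn1a UMI was seen in those 38 cells, and the interval reaches 14 CPM. Ccng1 of Mus was alike within error, 58.2 and 60.2 CPM, at a ratio of 0.966 (0.673 to 1.38). Cdkn1c had 20 UMIs in the cycling and 0 in the mature Mus cluster, where the interval reaches 3.97 CPM.

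**Figure D3:**
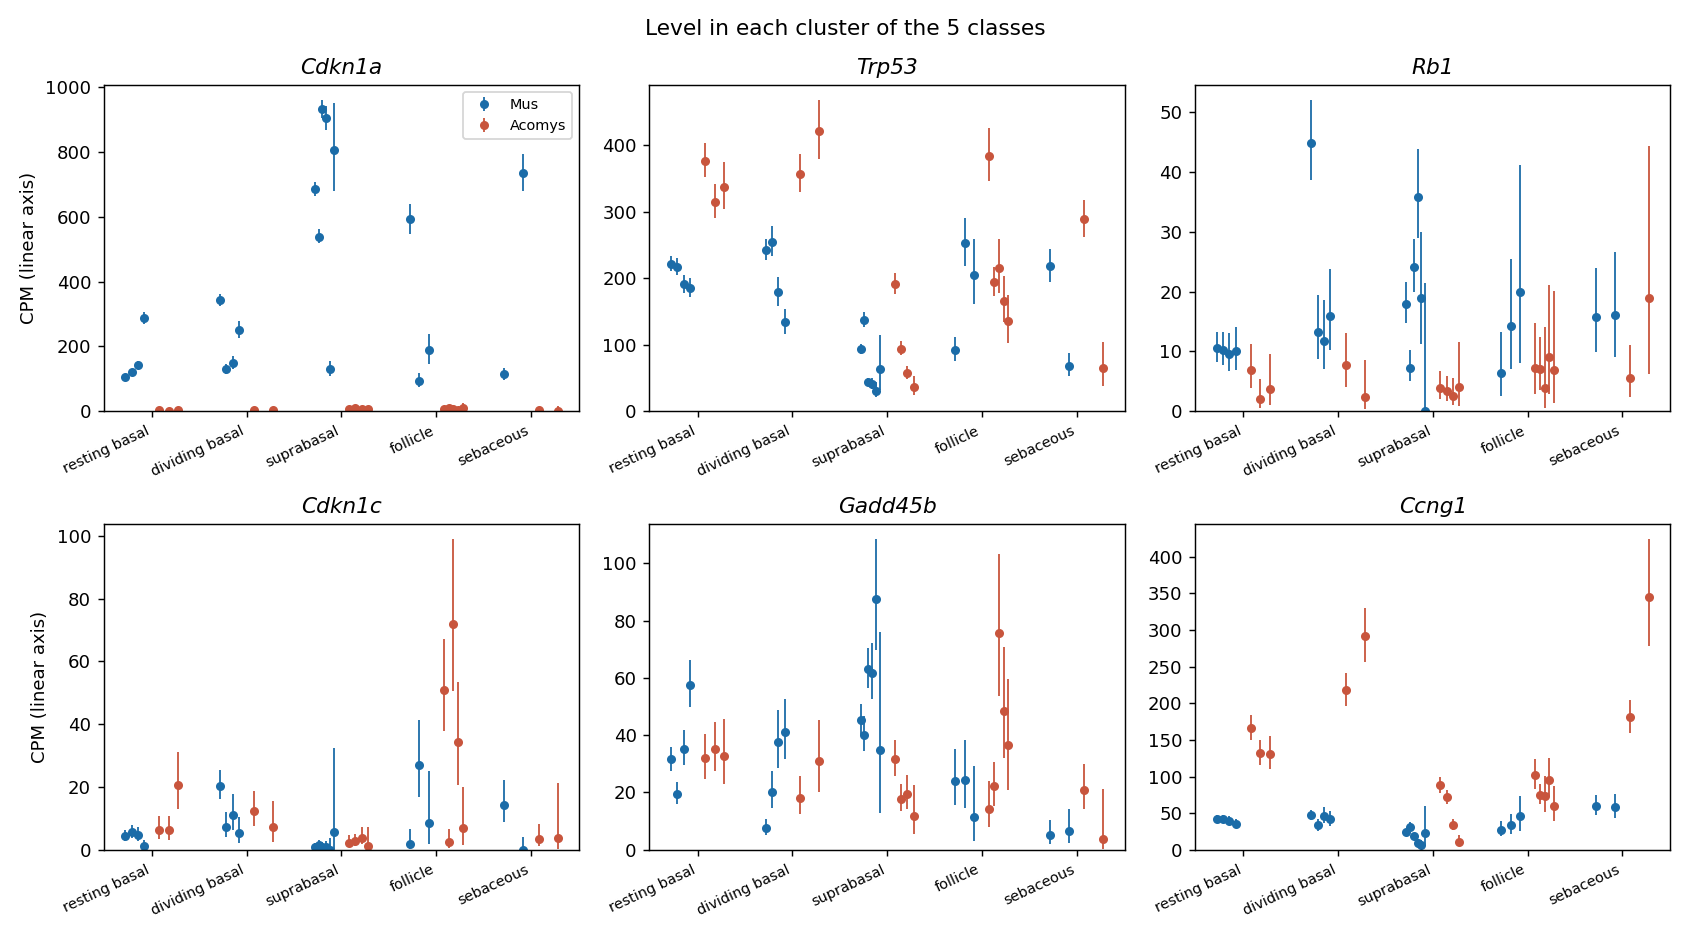
Level (CPM, linear axis from 0) of 6 genes in each cluster of the 5 classes, with exact Poisson 95% intervals as bars (Mus blue, Acomys red; each point is a cluster). Cdkn1a of Mus spans 130 to 933 CPM among suprabasal clusters and 113 to 736 CPM among sebaceous clusters, and Trp53 is low where Cdkn1a is high in follicle and sebaceous cells of Mus.

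Between the libraries, Cdkn1a differed most of the 10 genes. In Acomys it was 55.0-fold lower (32.7 to 101) than in Mus in resting basal, 105-fold lower (48.2 to 286) in dividing basal, 109-fold lower (85.1 to 142) in suprabasal and 53.4-fold lower (36.4 to 81.6) in follicle cells. In sebaceous cells, with 3 UMIs in Acomys, it was 205-fold lower, with a counting interval of 69.7 to 993. The make-up of that class differed. The mature cluster held 683 of the 841 Cdkn1a UMIs in Mus, but 38 of the 298 cells in Acomys. In the clusters counted as cycling, Cdkn1a was at 113 CPM in Mus and 2.10 in Acomys. The part of this make-up in the ratio was not tested. Of 7477 genes measured in resting basal cells, 4.32% had a lower ratio, and of 6679 in suprabasal cells 2.11%. Among other p53 targets, Phlda3 had 300.2 CPM in Mus and 4.08 in Acomys over the 5 classes, and Perp 5120 and 463 CPM, whereas Sfn had 4979 and 3864. Whether the low Acomys levels come from the animals or from how far the annotation covers these transcripts cannot be told apart.

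Ccng1, Bax and Trp53 were higher in Acomys in all 5 classes. The Ccng1 ratio of Acomys over Mus was 3.62 (3.27 to 4.01) in resting basal, 5.64 (4.96 to 6.42) in dividing basal, 2.92 (2.58 to 3.32) in suprabasal, 2.54 (1.96 to 3.32) in follicle and 3.48 (2.85 to 4.27) in sebaceous cells. For Bax it ran from 1.77 (1.64 to 1.92) in suprabasal to 2.66 (2.32 to 3.06) in follicle cells, and for Trp53 from 1.40 (1.24 to 1.58) in follicle to 1.75 (1.62 to 1.89) in dividing basal cells, under the 2-fold limit set between libraries. In sebaceous cells without the cycling clusters, the log2 ratio of Trp53 was -0.07 in place of 0.69.

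Mdm2, Cdkn1b and Rb1 were lower in Acomys in most classes. Mdm2 was 2.95-fold lower (2.28 to 3.90) in resting basal and 2.77-fold lower (2.34 to 3.31) in suprabasal cells, and 1.28-fold (0.822 to 2.03) in sebaceous cells, where the interval includes no difference. Rb1 was 2.29-fold lower (1.48 to 3.70) in resting basal, 4.65-fold lower (2.77 to 8.44) in dividing basal and 5.78-fold lower (4.03 to 8.57) in suprabasal cells. In follicle cells its ratio of 0.609 (0.342 to 1.09) included no difference. In sebaceous cells its log2 ratio was -1.03, and 0.22 without the cycling clusters, from 5 UMIs in Acomys and 15 in Mus. Cdkn1b was 2.12-fold lower (1.61 to 2.85) in resting basal and 3.59-fold lower (2.59 to 5.08) in suprabasal cells, while in dividing basal cells its ratio of 0.768 (0.556 to 1.04) included no difference. Gadd45a and Gadd45b differed by class. Gadd45a was 3.60 times (2.66 to 4.96) as high in Acomys follicle cells but 0.961 times (0.821 to 1.12) in suprabasal cells, and Gadd45b was level in resting basal cells at 0.999 times (0.840 to 1.18) and 2.38-fold lower (2.05 to 2.77) in suprabasal cells. With free RNA subtracted, Gadd45b in resting basal cells was 2.19 times as high in Acomys.

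**Figure D4:**
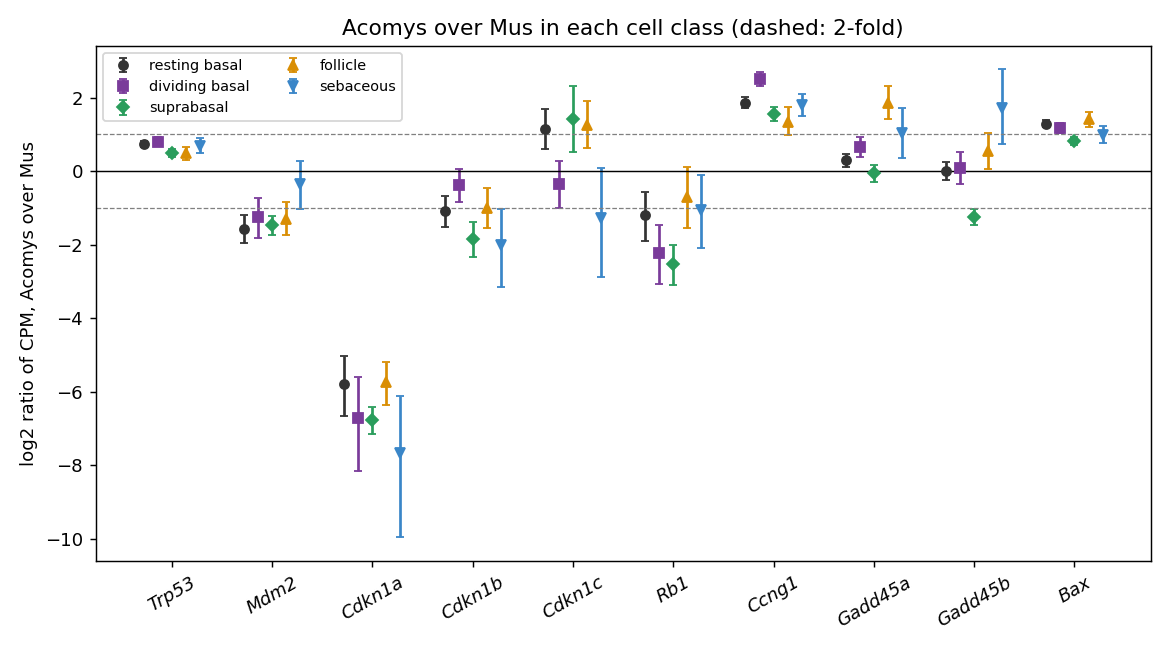
Log2 ratio of Acomys over Mus CPM for the 10 genes in each of the 5 cell classes (symbols), with exact 95% intervals as bars and dashed lines at 2-fold. Cdkn1a lies far below the lower dashed line in all 5 classes, from 53.4-fold lower in follicle to 205-fold lower in sebaceous cells, and Ccng1 lies above the upper dashed line in all 5.

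Past 2-fold in resting basal cells, 2 of 9 genes were higher in Acomys (Ccng1 and Bax) and 4 lower (Mdm2, Cdkn1a, Cdkn1b and Rb1), beside 15.6% and 37.0% of all genes. In suprabasal cells, 1 of 9 was higher (Ccng1) and 5 lower (the same 4 and Gadd45b), beside 13.6% and 39.3%. The counts were of the order of the background. The median log2 ratio over all genes measured was -0.38 in resting basal and -0.51 in suprabasal cells, so that a gene at equal CPM stands above most genes.

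Other genes of the pathway were taken from fixed lists. Of 35 further p53 targets, 30 had a shared symbol. In suprabasal cells, 3 were higher and 9 lower than in resting basal cells of 23 that passed in Mus, and 3 and 10 of 17 in Acomys, with median log2 values over these genes of -0.16 and -1.0, beside -0.34 and -0.46 over all genes. The shares over all genes were 11.8% higher and 33.3% lower in Mus, and 11.0% and 42.5% in Acomys. Lower in both were the ubiquitin ligase subunit Fbxw7 (log2 -1.74 in Mus and -2.93 in Acomys), the repair genes Xpc (-1.91 and -1.58) and Ddb2 (-1.40 and -1.83) and the sugar reductase Dcxr (-1.33 and -1.97). In sebaceous cells, 0 were higher and 10 lower of 23 in Mus, and 0 and 11 of 17 in Acomys, beside 17.5% and 23.0% of all genes lower. Among them were Plk2 (-2.16 and -1.45), the checkpoint protein Sfn (-2.01 and -1.55) and the desmosome protein Perp (-1.12 and -0.96). In dividing basal cells, 1 was higher and 5 lower of 22 in Mus and 0 and 5 of 17 in Acomys, where the antiproliferative gene Btg2 was lower in both (-0.68 and -1.12). Beside this, 13.2% of all genes were higher and 5.52% lower in Mus, and 13.3% and 9.11% in Acomys. In follicle cells the counts were 1 and 9 of 22 in Mus and 1 and 4 of 17 in Acomys. All genes had shares of 15.3% higher and 10.8% lower there in Mus, and 14.2% and 7.50% in Acomys.

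Among 11 shared regulators and relatives of p53, suprabasal cells had 1 higher and 4 lower of 8 in Mus and 0 and 4 of 5 in Acomys. Beside this, 11.8% of all genes were higher and 33.3% lower in Mus, and 11.0% and 42.5% in Acomys. Trp63 (log2 -0.86 and -1.02), the p53 relative that maintains the basal layer and is itself one of the basal markers used for naming, and Trp73 (-3.62 and -2.66) were lower in both. The checkpoint kinases Chek2 (3.29 and 2.74) and Atm (0.77 and 0.69) were higher in dividing basal cells of both, where 2 were higher and 1 lower of 10 in Mus and 2 and 0 of 6 in Acomys. The shares over all genes there were 13.2% higher and 5.52% lower in Mus, and 13.3% and 9.11% in Acomys. The list of 9 shared inhibitors outside the Cip/Kip family had 4 higher and 1 lower of 7 in dividing basal cells of Mus and 4 and 1 of 6 in Acomys, beside the same shares over all genes. The 4 were the same genes: the phosphatase Cdkn3 (4.66 and 4.30), the INK4 inhibitors Cdkn2d (3.37 and 3.09) and Cdkn2c (2.74 and 2.64) and the Cdk1 inhibitory kinase Pkmyt1 (2.98 and 2.69). Dividing cells were chosen by markers of the same phases. Gadd45g, the remaining Gadd45 gene, was higher in follicle cells of both (2.68 and 2.56).

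Of 15 shared G1 cyclins, kinases and E2F factors, suprabasal cells had 0 higher and 8 lower of 10 in Mus and 0 and 6 of 7 in Acomys, beside 33.3% and 42.5% of all genes lower. The medians were -0.86 and -1.52, beside -0.34 and -0.46 over all genes. The D cyclins Ccnd2 (-3.46 and -3.77) and Ccnd1 (-2.50 and -2.43), which drive the kinases that Cdkn1a and its kin restrain, were among them, with E2f1 (-1.69 and -2.90) and Cks1b (-0.84 and -1.52). In dividing basal cells, 8 were higher and 1 lower of 13 in Mus and 4 and 2 of 9 in Acomys, including Ccne1 (4.43 and 2.67), Skp2 (1.66 and 1.17) and Cks1b (2.78 and 2.12). The shares over all genes there were 13.2% higher and 5.52% lower in Mus, and 13.3% and 9.11% in Acomys. Of 9 shared BCL2 family genes, suprabasal cells had 0 higher and 1 lower of 5 in Mus and 0 and 2 of 3 in Acomys, beside the same 33.3% and 42.5% of all genes lower.

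Genes with the most similar pattern were sought for the 5 genes with at least 20 UMIs in all 5 classes of both libraries, over 10 points (5 classes in 2 libraries, each centred on its library) and 3975 genes. The points of a library share its depth and preparation, so the values only describe these libraries. Nearest to Trp53 were Itgb1, the beta-1 integrin of the basal layer (Pearson r = 0.988), Pcbp2 (0.981) and Tiprl (0.980). Nearest to Bax were the RNA-binding genes Srsf11 (0.985) and Hnrnpk (0.984) and R3hcc1 (0.980). For Ccng1 they were Snupn (0.960), Ttc32 (0.954) and Prcc (0.95), for Gadd45a Rnf20 (0.960), Gripap1 (0.957) and Mitd1 (0.956), and for Mdm2 Atp6ap1 (0.923), Laptm4a (0.915) and Kcnk7 (0.915).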

How the data were processed

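Droplet libraries of adult ear skin, 1 of Mus and 1 of Acomys, were used. Per the submitters' processing notes, Cell Ranger 2.2.0 and the build mm10 were used; which annotation was used for Acomys is not given in sources used here. The authors deposited raw UMI counts per gene for all 737280 barcodes of each library, 130039670 UMIs in Mus and 71042559 in Acomys. Cells had at least 4695 (Mus) or 2872 (Acomys) UMIs (the 99th percentile among the top 3000 barcodes, divided by 10) with 200 or more genes detected. Over 20% mitochondrial UMIs (4 Mus cells; the Acomys list held no mitochondrial genes) and the highest doublet scores, at 0.8% per 1000 cells (386 and 183 cells), were left out. Each library was clustered with scanpy 1.11.5 (2000 variable genes without the 10 genes and their lists, 30 components, 20 neighbours, Leiden resolution 1), giving 23 and 24 clusters. A marker counted where 20% of cells had it at 1.5-fold; a name needed 3 markers and leading genes that did not favour another type, and dividing basal clusters at least 5 cycle markers.

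UMIs were summed per class. Shared symbols held 62.1% of Mus and 66.9% of Acomys cell UMIs. Log2 ratios used a prior count of 0.5. The ratio calculation was tested on simulated data. All 10 genes are named; of each list, the genes of highest level and up to 4 past the limit in both libraries. The genes and lists were chosen with earlier results of these data known. Clusters compared within a class were chosen after their values were seen. Alternatives were another UMI minimum (1000), doublets kept, the genes kept for clustering, resolution 2, CPM over all genes, free RNA subtracted, single-cell means, dividing cells by their own cycle UMIs, unnamed basal clusters counted in, a prior of 5 and no filter; 4 that leave out clusters were added after seeing the data.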

Additional observations from a re-analysis of the deposited data

Results flagged for a closer look

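Some genes had ratios to resting basal cells that pointed in opposite directions in the 2 libraries, with intervals that did not include a ratio of 1; the difference itself was not tested. In sebaceous cells, the log2 ratio of Mdm2 was -0.50 in Mus and 0.70 in Acomys, and that of Cdkn1c was 1.04 in Mus and -1.35 in Acomys, from 20 and 6 UMIs in sebaceous cells and under the minimum of 10 CPM in both. The Mus value was -6.44 without the cycling cluster, which held all 20 UMIs, and the Acomys value -0.23 with a minimum of 1000 UMIs per cell. In suprabasal cells, that of Gadd45b was 0.67 in Mus and -0.58 in Acomys.

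Cells outside the 5 classes held Cdkn1c and Bax above the level of each of those classes in their own library. Cdkn1c was at 83.0 CPM (45.4 to 139) in 43 endothelium-like and 79.9 (52.2 to 117) in 53 fibroblast-like cells of Mus, and at 81.9 (50.1 to 127) in 93 endothelium-like and 185 (115 to 283) in a cluster of 41 Acomys cells that held 8 fibroblast markers but was led by the cartilage genes Cytl1, Snorc and Comp beside Col1a2 and Dcn. Bax was at 249 CPM (180 to 337) in endothelium-like cells of Mus, and at 438 (359 to 530) in endothelium-like and 458 (342 to 601) in 38 T cell-like cells of Acomys. Free RNA of Acomys held Bax at 408 CPM (358 to 463), within both Acomys intervals, and that of Mus at 169 (135 to 209). In the other named groups outside the classes, Bax was also above each class. It was at 166 CPM in fibroblast-like and 182 in myeloid-like cells of Mus, and in Acomys at 400 in melanocyte-like cells and 308 in the cluster led by Cytl1. These groups rest on 14 to 107 UMIs each.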

How the results depend on the processing

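No paired analysis was possible because each species has 1 library. Counting ratios of low level too, 40 between classes were past 1.5-fold, and 36 to 40 stayed past it under each of 15 alternatives, of which 4 were chosen after seeing the data. With free RNA subtracted, 36 could be evaluated and 36 stayed. The direction changed in 1, without cycling sebaceous clusters. Of 32 ratios between libraries past 2-fold, 27 to 32 stayed past it (27 of 30 with free RNA subtracted). Without cycling sebaceous clusters 4 changed direction, on 1 to 5 UMIs each in Acomys. Gadd45b in Mus dividing cells was under 1.5-fold in 5 alternatives, and in Mus follicle cells in 6.

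Counts of the 10 genes past 1.5-fold moved by over 1.5 times as follows. With dividing cells taken by their own cycle UMIs, the count in dividing cells was 1 in Mus in place of 4 and 1 in Acomys in place of 2. In Mus follicle cells it was 2 in place of 4 with doublets kept and with CPM over all genes. In Acomys follicle cells it was 4 in place of 2 with free RNA subtracted and with genes of at least 1 UMI. Without cycling sebaceous clusters it was 7 in place of 4 in Mus and 7 in place of 4 in Acomys, since only the mature clusters remained, and the share over all genes was not computed there. There the log2 ratio of Cdkn1c in Mus was -6.44, a fitted value against 0 UMIs and no bound, and Acomys over Mus was 2.47 for Cdkn1c, 0.22 for Rb1, -0.26 for Gadd45a and -0.66 for Gadd45b. In that order, these 4 ratios between libraries rest on 1, 5, 4 and 1 UMIs in Acomys and 0, 15, 17 and 6 in Mus, too few to settle a direction. For the other moves the cause was not tested. Acomys levels of Cdkn1a and Rb1 rest on 3 to 63 UMIs a class, so their order between classes is limited by depth, and 1 library per species limits every comparison.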

Other observations

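Clusters left unnamed enter no class, and the levels in the largest are given here. In the Mus cluster led by the follicle gene Sostdc1 (505 cells, with 2 of 3 needed markers), Trp53 was at 219 CPM (201 to 237), Cdkn1a at 208 (191 to 227), Cdkn1b at 33.5 (26.8 to 41.4) and Gadd45a at 20.3 (15.1 to 26.6). In Acomys, the cluster led by Fst (365 cells, basal markers) had Trp53 at 337 CPM (311 to 366), Cdkn1a at 2.82 (0.914 to 6.57), Ccng1 at 119 (104 to 137) and Gadd45a at 73.2 (61.2 to 86.9). The Acomys cluster led by Cyp1a1, a detoxifying enzyme (219 cells), had Trp53 at 306 CPM (273 to 341), Ccng1 at 102 (83.2 to 123) and Cdkn1c at 25.5 (16.6 to 37.3).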
